A study of Mus musculus with 3 samples.

Results

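The genes described are 8 transcription factors known for the epithelial-mesenchymal transition: Snai1, Snai2, Twist1, Zeb1, Zeb2, Prrx1, Foxc2 and Tcf4. They were chosen by name and are 8 of the 258 gene columns analysed. The samples were 3 mammary tumours of MMTV-PyMT mice labelled WT, each preserved by formalin fixation and paraffin embedding and imaged as 1 tissue section by multiplexed error-robust fluorescence in situ hybridisation on the Vizgen MERSCOPE instrument. All 3 tumours form 1 group, with no treatment and no second genotype, and the labels give neither age nor strain. In this model the mouse mammary tumour virus promoter drives the polyomavirus middle T oncogene, a transgene that all 3 tumours share, so comparisons could be made only between cells of the same tumours. No part of the choice of genes rested on measured values, but results of these data were known when it was made.

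In an epithelial-mesenchymal transition, epithelial cells loosen their junctions, lower E-cadherin (Cdh1) and take on features of mesenchymal cells. Snai1 and Snai2 are zinc finger proteins and Zeb1 and Zeb2 zinc finger and homeodomain proteins that bind E-box motifs and can repress Cdh1. Twist1 and Tcf4 are basic helix-loop-helix proteins, Prrx1 is a paired-type homeodomain protein and Foxc2 is a forkhead protein. All of them also act outside tumour cells. Snai1, Zeb1 and Foxc2 are used by vascular cells, Twist1 and Prrx1 by fibroblasts and their embryonic precursors, Zeb2 by macrophages, and Snai2 by basal cells of the normal mammary gland. A transcript of one of these genes in a carcinoma is therefore tied to a transition only where the cell that carries it is known.

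The E-box that Snail and ZEB proteins bind reads CAGGTG, or CACCTG on the other strand. RefSeq promoters, from 250 bases before to 50 bases after the gene start in build GRCm38.p6, were on hand for 4 of the 8 genes. They are shown for Snai1, the only 1 of the 8 above the background in Cdh1-positive cells without basal keratins, and for Twist1, which was highest in pericyte-gated and not in endothelial-gated cells, with a match to the motif in capitals. The windows of Prrx1 and Zeb2 were also on hand and are not shown, although these genes too had their highest mean in pericyte-gated cells. The Snai1 window is chr2:167537945-167538244, plus strand, and holds 1 match, which starts at base 125 of the window, at position -126 relative to the gene start.
Snai1: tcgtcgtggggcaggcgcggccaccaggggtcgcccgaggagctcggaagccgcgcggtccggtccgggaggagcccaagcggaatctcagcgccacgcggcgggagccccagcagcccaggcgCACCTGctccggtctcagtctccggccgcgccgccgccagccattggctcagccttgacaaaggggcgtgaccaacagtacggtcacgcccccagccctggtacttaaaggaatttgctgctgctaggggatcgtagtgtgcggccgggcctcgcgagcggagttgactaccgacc
Twist1: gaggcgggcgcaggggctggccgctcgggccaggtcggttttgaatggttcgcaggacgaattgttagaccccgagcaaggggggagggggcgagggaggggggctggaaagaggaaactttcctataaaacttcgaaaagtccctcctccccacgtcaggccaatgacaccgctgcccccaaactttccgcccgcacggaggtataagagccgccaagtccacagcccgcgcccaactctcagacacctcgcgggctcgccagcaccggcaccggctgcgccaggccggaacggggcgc
The Twist1 window is chr12:33957421-33957720, plus strand, and holds no match on either strand. Of 32851 RefSeq promoters of the same length, 20.2% hold at least 1 match, so the match in the Snai1 window is a description of these letters and not of binding.

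After cells with fewer than 20 panel transcripts or an extreme volume were left out, 619770, 453995 and 673638 cells were kept in tumours 1, 2 and 3, with medians of 98, 106 and 94 transcripts. The tables also hold 27 Blank columns, barcodes assigned to no gene, which took 0.503%, 0.481% and 0.496% of all decoded transcripts and serve as the background. A level is a gene's transcripts per 1000 panel transcripts of the same cells, and a gene was counted as above the background in a class of cells where its level exceeded that of the highest Blank column in the same cells in all 3 tumours. Levels were compared for 1 gene between cells and not between genes, whose probes may be detected unequally. Cells were assigned by marker genes, and the 4 stromal classes were limited to cells that met 1 stromal gate and had no Cdh1 transcript. Pecam1 and Cdh5 gave 3180, 1978 and 1419 endothelial-gated cells. Pdgfrb and Rgs5 gave 632, 587 and 613 pericyte-gated cells. Matrix genes led by Col1a1 gave 77672, 66942 and 86211 fibroblast-gated cells, and Adgre1, Cx3cr1 and related receptors gave 2575, 1365 and 514 macrophage-gated cells. Cdh1-positive cells that met no stromal gate were divided into 9554, 2612 and 6004 cells with basal keratins and 188969, 126836 and 158267 other Cdh1-positive cells, the class against which the others were set. Cells of 1 class share a section, so the tumours, and not the cells, were the replicates. All classes were fitted together with the tumour as a block. The p-values of a class therefore rest on the spread of class differences over these 3 tumours, with the spread of the other classes included. They measure no spread beyond these 3 sections.

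The gates differed in how cleanly they held. The summed level of the endothelial markers was 58.3, 51.5 and 38.1 per 1000 in endothelial-gated cells. The basal keratins summed to 63.7, 72.9 and 47.6 per 1000 in the basal class, against 3.97, 1.79 and 2.71 per 1000 in other Cdh1-positive cells. The fibroblast gate was loose: 29.1%, 28.6% and 20.5% of kept cells met it, and the epithelial check genes Cldn4, Gata3 and Sox9 summed to 70.8, 69.1 and 71.6 per 1000 in the fibroblast class, against 115, 122 and 99.2 per 1000 in other Cdh1-positive cells. Results for that class are therefore also given for 23514, 21521 and 21387 cells in which the fibroblast markers made up at least 20% of transcripts, a limit chosen after the data were seen. Carry-over was not particular to the fibroblast gate. The same check genes summed to 59.9, 77.5 and 68.9 per 1000 in macrophage-gated cells. In pericyte-gated cells they summed to 32.1, 50.8 and 34.6 per 1000, and in endothelial-gated cells to 22.7, 29.4 and 28.8 per 1000. No stricter limit on epithelial genes was set for these classes. The part that transcripts of neighbouring cells play in any class was not tested.

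**Figure D1:**
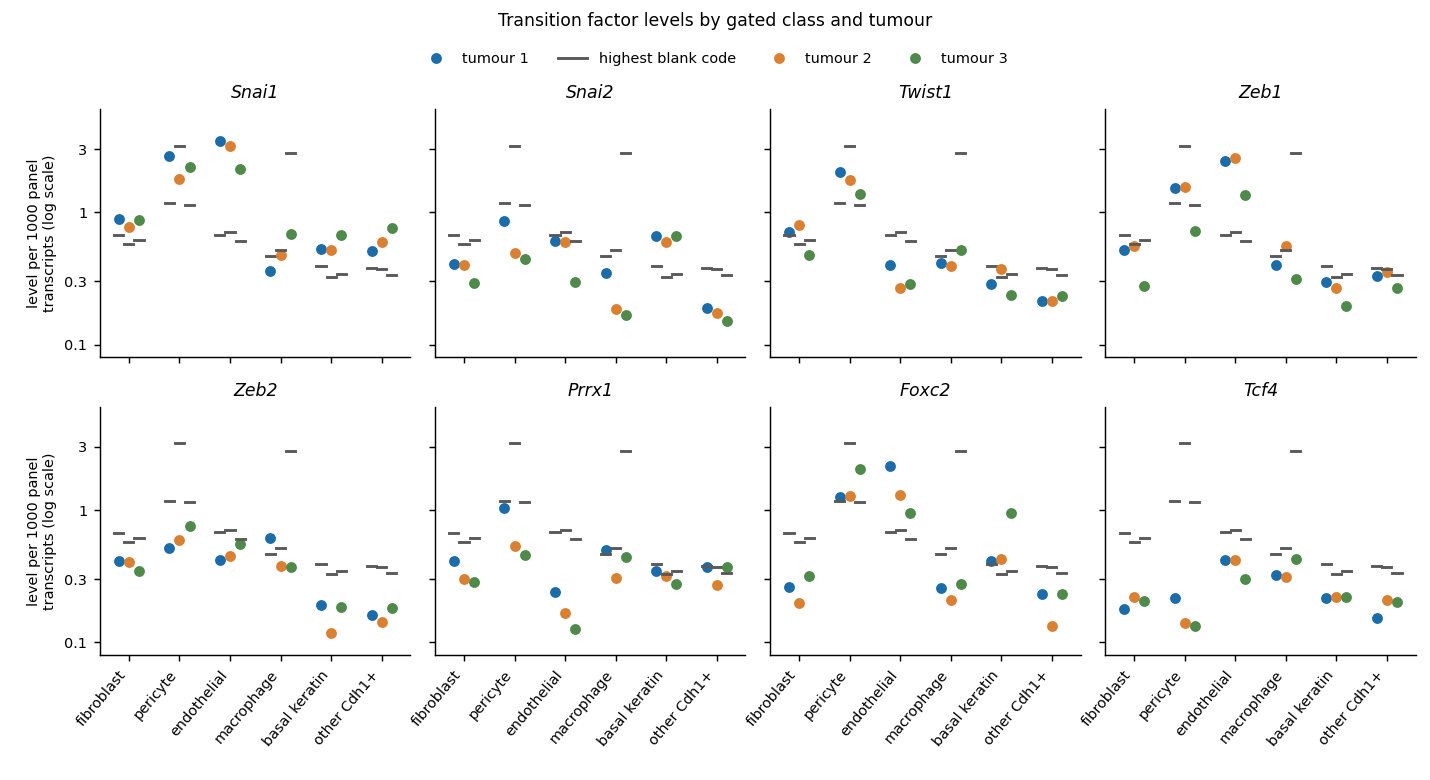
Level of each of the 8 genes (transcripts per 1000 panel transcripts, log axis) in each class of cells, 1 point per tumour, with a bar at the highest Blank column of the same cells. Snai1, Zeb1 and Foxc2 lie above the bars in endothelial-gated cells of all 3 tumours. Twist1, Prrx1, Zeb2 and Tcf4 lie above the bars of all 3 tumours in none of the 6 classes.

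Endothelial-gated cells carried 3 of the 8 genes above the background in all 3 tumours, Snai1, Zeb1 and Foxc2, where 41.9% of all 258 genes stood above it. Snai1, the zinc finger repressor, had 3.43, 3.15 and 2.12 transcripts per 1000 in endothelial-gated cells, against 0.507, 0.591 and 0.759 per 1000 in other Cdh1-positive cells. Every endothelial value lay above every Cdh1-positive value, and the log2 fold change was 2.67 ± 0.26 (SE; edgeR quasi-likelihood test with the tumour as a block, adjusted p = 3.59e-07). Zeb1, which acts beside the Snail proteins on the same motif, had 2.42, 2.57 and 1.34 per 1000 in endothelial-gated cells, against 0.330, 0.352 and 0.267 per 1000 in other Cdh1-positive cells. The values did not overlap, tumour 3 was the lowest of the endothelial ones, and the log2 fold change was 3.10 ± 0.19 (SE; edgeR adjusted p = 4.16e-09). Foxc2, a forkhead factor with a role in lymphatic and vascular development, had 2.13, 1.31 and 0.943 per 1000, against 0.231, 0.132 and 0.232 per 1000. Its values did not overlap either, although tumour 1 stood well above tumour 3 among the endothelial ones, and the log2 fold change was 3.38 ± 0.33 (SE; edgeR adjusted p = 4.25e-07).

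In the same endothelial-gated cells, 7 of the 8 genes passed the test as higher and none as lower, where 63.6% of all genes passed in either direction, 34.5% of all genes as higher and 29.1% as lower. The log2 fold changes of the 8 genes had a median of 1.95, and those of all 258 genes a median of 0.03. Snai2, Zeb2, Tcf4 and Twist1 passed with log2 fold changes of 1.94, 1.97, 1.46 and 0.94, and Twist1 no longer passed without tumour 1 (edgeR adjusted p = 0.0566). Their levels stayed below the highest Blank column, which reached 0.677, 0.708 and 0.604 per 1000 in these cells. Blank columns moved as well: with the 27 of them added to the fit, 9 passed as higher and 4 as lower, and the highest had a log2 fold change of 1.69. The folds of Snai1, Snai2, Zeb1, Zeb2 and Foxc2 were above that value and those of Tcf4 and Twist1 were not. Prrx1, the paired-type homeodomain factor, had 0.241, 0.166 and 0.127 per 1000, against 0.369, 0.271 and 0.373 per 1000 in other Cdh1-positive cells. This was the lowest of the 6 classes and below the Cdh1-positive level in all 3 tumours, with a log2 fold change of -0.52 ± 0.24 that did not pass (SE; edgeR adjusted p = 0.0698). Under 8 of 18 alternatives, library sizes and DESeq2 among them, Prrx1 passed as lower (edgeR adjusted p = 0.00115 and DESeq2 adjusted p = 0.0131 under those named). Its endothelial levels were also below the highest Blank column in all 3 tumours, with the median Blank column at 0.159, 0.097 and 0.138 per 1000. The lowest Blank fold was -1.07, so the Prrx1 fold lay inside the range of the Blank columns.

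Pericyte-gated cells, the mural cells of small vessels, had the highest mean levels of Twist1, Foxc2, Zeb2 and Prrx1 among the 6 classes. Twist1, a helix-loop-helix factor of mesenchyme, had 2.03, 1.74 and 1.36 per 1000 in pericyte-gated cells, against 0.212, 0.214 and 0.234 per 1000 in other Cdh1-positive cells. The groups were far apart in every tumour, with a log2 fold change of 3.20 ± 0.25 (SE; edgeR adjusted p = 7.04e-08). Foxc2 had 1.25, 1.28 and 2.06 per 1000, with tumour 3 the highest, and a log2 fold change of 3.23 ± 0.34 (SE; edgeR adjusted p = 1.22e-06). Snai1 had 2.66, 1.79 and 2.19 per 1000, none of them near the Cdh1-positive values, and a log2 fold change of 2.11 ± 0.26 (SE; edgeR adjusted p = 5.24e-06).

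As in endothelial-gated cells, 7 of the 8 genes passed as higher in pericyte-gated cells and none as lower, where 62% of all genes passed, 31% of all genes as higher and 31% as lower. Their log2 fold changes had a median of 2.15, and those of all genes -0.05. Zeb1 had 1.51, 1.54 and 0.726 per 1000 (log2 fold change 2.19), and the log2 fold changes of Zeb2, Snai2 and Prrx1 were 2.21, 2.04 and 1.21. Tcf4 did not pass, at 0.216, 0.141 and 0.133 per 1000, against 0.152, 0.208 and 0.202 per 1000. None of the 8 was above the background in all 3 tumours, where 21.3% of all genes were. In tumour 2 the background was set by Blank-16, at 3.19 per 1000, against 1.16 and 1.14 per 1000 for the highest Blank column of tumours 1 and 3. With cells left out that held 5 or more transcripts of 1 Blank column, an alternative chosen after the data were seen, the highest Blank column in tumour 2 was at 1.18 per 1000 and Snai1, Twist1 and Foxc2 stood above the background in all 3 tumours, where 34.5% of all genes did. The pericyte class is small and its Blank columns also differed from the Cdh1-positive class: 5 of 27 passed as higher, with a highest log2 fold change of 2.32, which only Twist1 and Foxc2 exceeded. The endothelial markers summed to 5.91, 4.12 and 2.90 per 1000 in this class, and the part of RNA from adjacent endothelium was not tested.

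In fibroblast-gated cells 4 of the 8 genes passed as higher and none as lower, where 48.1% of all genes passed, 25.2% as higher and 22.9% as lower. The log2 fold changes had a median of 0.49 for the 8 genes and -0.04 for all genes. Twist1 had 0.710, 0.805 and 0.478 per 1000 in fibroblast-gated cells, against 0.212, 0.214 and 0.234 per 1000 in other Cdh1-positive cells, a log2 fold change of 1.61 ± 0.23 (SE; edgeR adjusted p = 4.74e-05). Zeb2, a homologue of Zeb1, had 0.410, 0.406 and 0.344 per 1000, against 0.1601, 0.141 and 0.182 per 1000, a log2 fold change of 1.33 ± 0.21 (SE; edgeR adjusted p = 0.000105). Snai2 had 0.408, 0.401 and 0.290 per 1000, against 0.190, 0.172 and 0.151 per 1000, a log2 fold change of 1.14 ± 0.23 (SE; edgeR adjusted p = 0.00108). These 3 genes were above the Cdh1-positive range in every tumour, and their folds were above the highest Blank fold of 0.95. Zeb1 passed narrowly (log2 fold change 0.49, edgeR adjusted p = 0.0298), with a tumour 3 value of 0.276 per 1000 that lay inside the Cdh1-positive range, and it no longer passed without tumour 1 or tumour 2 (edgeR adjusted p = 0.257 and 0.265), without the block (0.238) or without the limit on Cdh1 (0.311).

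Snai1 was the only 1 of the 8 above the background in fibroblast-gated cells, where 47.7% of all genes were, at 0.883, 0.768 and 0.868 per 1000 with the highest Blank column at 0.667, 0.573 and 0.612 per 1000. Against other Cdh1-positive cells its log2 fold change of 0.49 ± 0.24 did not pass (SE; edgeR adjusted p = 0.107). Twist1 was above the highest Blank column in tumours 1 and 2 only. In cells with no Cdh1 transcript that met several stromal gates, Snai1 and Twist1 were both above it in all 3 tumours. The ratio of Twist1 to the highest Blank column was 1.10 to 1.19 there, and 127, 116 and 110 of all 258 genes were above that column. In the cells with at least 20% fibroblast markers, 7 of the 8 genes passed as higher, all but Foxc2, where 77.9% of all genes passed, 41.9% as higher and 36.0% as lower. Twist1 had 1.29, 1.54 and 0.926 per 1000 there (log2 fold change 2.91) and Zeb2 had 0.779, 0.779 and 0.596 per 1000 (log2 fold change 2.60). In the same cells Sox9, an epithelial check gene, was at 10.4, 6.99 and 9.91 per 1000, and the highest Blank column was at 1.002, 0.961 and 1.24 per 1000, so that none of the 8 stood above it in all 3 tumours. Prrx1, a known fibroblast factor, had 0.458, 0.347 and 0.264 per 1000 in these cells, all below the Blank column.

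Macrophage-gated cells had none of the 8 genes above the background in all 3 tumours, where 27.9% of all genes were. Zeb2 had 0.619, 0.375 and 0.370 per 1000 in macrophage-gated cells, against 0.1601, 0.141 and 0.182 per 1000 in other Cdh1-positive cells. The values did not overlap, and the log2 fold change was 1.42 ± 0.23 (SE; edgeR adjusted p = 0.000111). Twist1 and Tcf4 also passed, with log2 fold changes of 0.81 and 0.74, but not without tumour 1 (edgeR adjusted p = 0.0609 and 0.0587). In all, 3 of the 8 genes passed as higher and none as lower, where 47.3% of all genes passed, 24.4% as higher and 22.9% as lower, with medians of 0.28 over the 8 genes and 0.09 over all genes. No fold of the 8 exceeded the highest Blank fold of 1.71, and in tumour 3 the highest Blank column was at 2.79 per 1000 over only 514 cells.

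**Figure D2:**
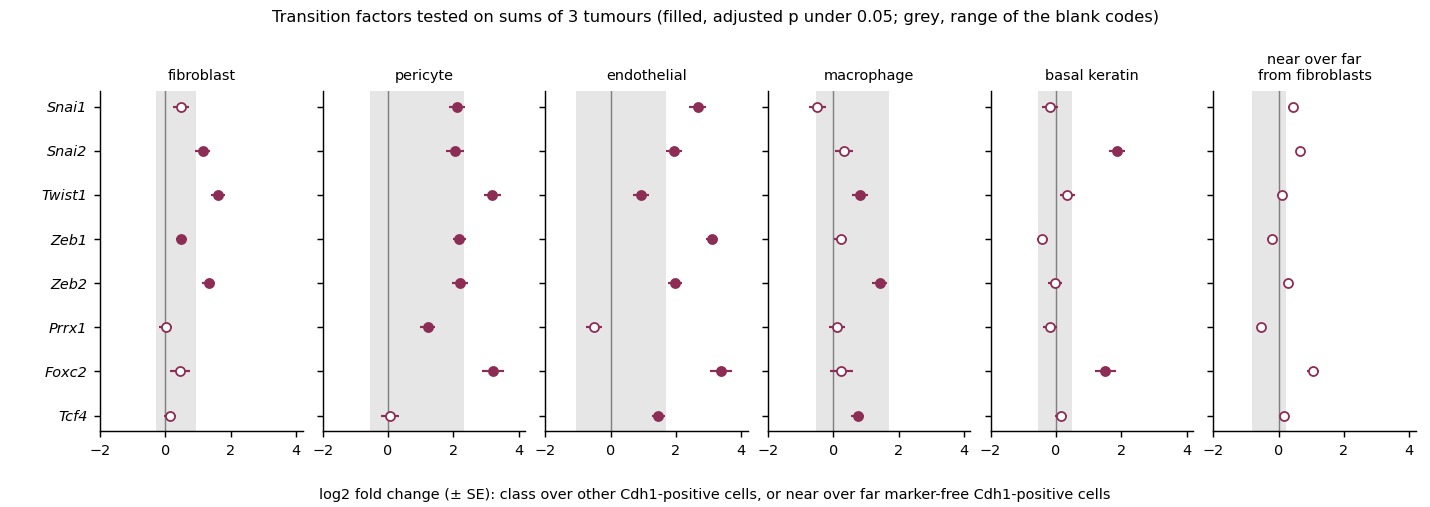
Log2 fold change (edgeR, with SE) of each of the 8 genes in each class over other Cdh1-positive cells, and near over far from fibroblast-gated cells, from sums of 3 tumours, with filled points for an adjusted p under 0.05 and the range of the Blank columns in grey. The largest value is 3.38, for Foxc2 in endothelial-gated cells, and in the basal keratin class Snai2 and Foxc2 are the filled points.

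Among epithelial cells, those with basal keratins differed from the rest in 2 of the 8 genes, Snai2 and Foxc2, both higher, where 12% of all genes passed, 5.81% as higher and 6.2% as lower. Snai2, a factor of mammary basal cells, had 0.660, 0.597 and 0.665 per 1000 in the basal class, against 0.190, 0.172 and 0.151 per 1000 in other Cdh1-positive cells. The basal values lay close together and far above the others, with a log2 fold change of 1.86 ± 0.24 (SE; edgeR adjusted p = 7.5e-05). Foxc2 had 0.415, 0.423 and 0.953 per 1000, against 0.231, 0.132 and 0.232 per 1000. Its basal values exceeded the others in every tumour but were led by tumour 3, and the log2 fold change of 1.51 ± 0.31 (SE; edgeR adjusted p = 0.00423) no longer passed without tumour 2 (edgeR adjusted p = 0.0860). The median over the 8 genes was 0.06, against -0.14 over all genes.

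Snai1, Snai2 and Foxc2 were above the background in the basal class in all 3 tumours, where 53.1% of all genes were. Under 5 of 11 alternatives Foxc2 no longer was, among them the mean plus 3 SD of the Blank columns as the limit and a gate sum of 5, while Snai1 and Snai2 were above it under all 11. The ratio of Snai2 to the highest Blank column was 1.68, 1.83 and 1.93, and that of Foxc2 was 1.05, 1.29 and 2.77. No Blank column passed as higher in this comparison, 2 passed as lower, and the highest Blank fold was 0.48. In the basal cells with no transcript of any stromal marker, 1085, 471 and 861 in number, Snai2 had 0.689, 0.533 and 0.619 per 1000 and Foxc2 had 0.391, 0.320 and 1.01 per 1000, against a highest Blank column of 0.391, 0.341 and 0.855 per 1000. The levels of Snai2 and Foxc2 were near those of the whole basal class, but Snai2 lay below that Blank column in tumour 3, and Foxc2 was level with it in tumour 1 and below it in tumour 2. Snai1 had 0.536, 0.192 and 0.680 per 1000 in these cells, below the Blank column in tumours 2 and 3. Zeb1, Zeb2, Twist1, Prrx1 and Tcf4 did not pass and lay at or below the highest Blank column in at least 2 of the tumours.

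Whether the genes occur in Cdh1-positive cells at all was asked in 48422, 29807 and 47688 Cdh1-positive cells with no transcript of any stromal marker. In all kept cells together only Snai1 stood above the background in all 3 tumours, at 0.672, 0.691 and 0.798 per 1000, where 51.9% of all genes did. In the marker-free cells it was again the only 1 of the 8, where 46.9% of all genes were, and likewise in other Cdh1-positive cells, where 50% of all genes were. Its level in the marker-free cells was 0.465, 0.560 and 0.662 per 1000, and 1.27, 1.25 and 1.91 times the highest Blank column. Each cell was then thinned to 50 transcripts, with 9424, 4472 and 6903 shallower cells left out. Snai1 was expected in 2.23%, 2.73% and 3.16% of the thinned marker-free cells, and the highest Blank column in 1.78%, 2.22% and 1.73% of them. The share exceeded the Blank column by about 0.5 of a percentage point in tumours 1 and 2 and by more in tumour 3. Without thinning, 3.802% (95% Wilson interval 3.64 to 3.98), 6.05% (5.78 to 6.32) and 6.72% (6.50 to 6.95) of marker-free cells had a Snai1 transcript, with the highest Blank column at 3.19%, 5.02% and 3.802%, intervals that cover counting error only.

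Prrx1 was expected in 1.81%, 1.34% and 1.87% of thinned marker-free cells, above the highest Blank column in tumours 1 and 3 and below it in tumour 2. The other 6 genes were below the highest Blank column in every tumour. Over all cells, the thinned share with Snai1 was 2.73%, 3.003% and 3.68% in Cdh1-positive cells, against 3.46%, 3.46% and 3.70% in cells with no Cdh1 transcript. The highest Blank column was also lower in Cdh1-positive cells, at 1.999%, 1.74% and 1.63%, against 2.52%, 2.28% and 1.85%. The excess of Snai1 over that column was larger in Cdh1-positive cells in tumours 2 and 3, and smaller in tumour 1. By the Cdh1 count of marker-free cells, the Snai1 level was 0.482, 0.582 and 0.654 per 1000 in cells with 1 Cdh1 transcript. It was 0.463, 0.526 and 0.676 per 1000 with 2, and 0.410, 0.557 and 0.697 per 1000 with 3 to 4. With 5 or more it was 0.402, 0.393 and 0.540 per 1000, against a highest Blank column of 0.393, 0.308 and 0.378 per 1000. That last bin rested on only 41, 37 and 40 Snai1 transcripts, and before it the level rose in tumour 3.

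**Figure D3:**
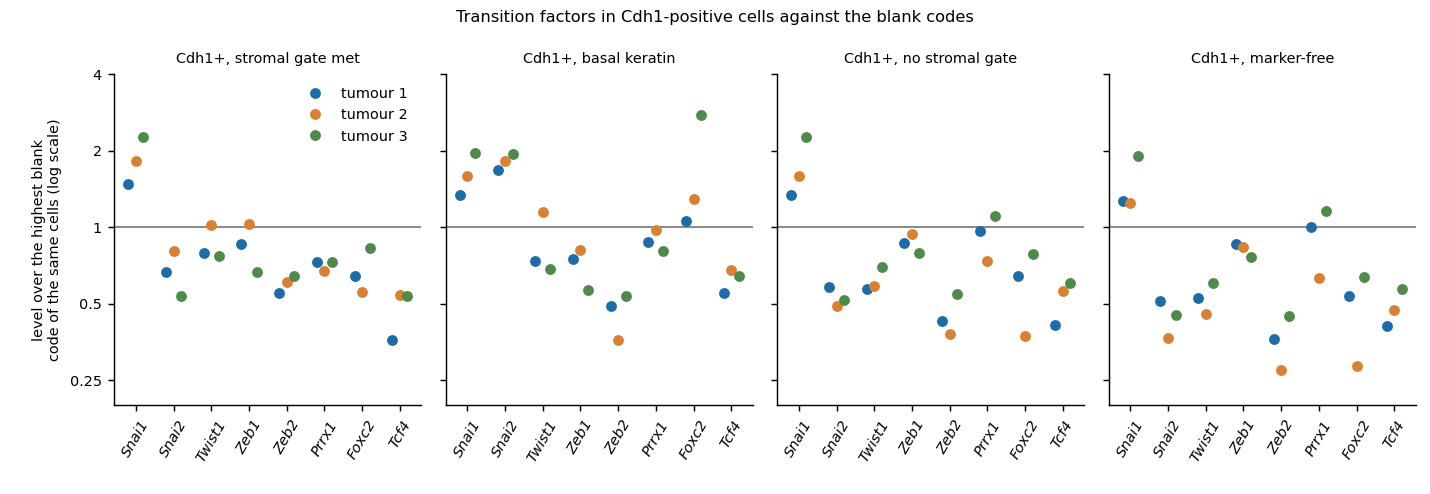
Level of each of the 8 genes over that of the highest Blank column in the same cells (log axis, line at 1), 1 point per tumour, in Cdh1-positive cells that met a stromal gate, had basal keratins, met no stromal gate or had no stromal marker transcript. In the marker-free cells Snai1 alone lies above the line in all 3 tumours, at 1.27, 1.25 and 1.91, and in basal keratin cells Snai2 and Foxc2 do so as well.

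What accompanied the genes in marker-free Cdh1-positive cells was set beside what accompanied the Blank columns. Cells with at least 1 Snai2 transcript had summed basal keratin levels of 18.8, 8.17 and 9.57 per 1000, above the highest value for any Blank column, 9.11, 5.14 and 4.67 per 1000. Snai2 was the only 1 of the 8 for which this held in all 3 tumours, and it held in cells with at least 2 Snai2 transcripts as well, although as few as 5 of the 27 Blank columns could then be used. For Cdh1, the claudin gene Cldn4 and the summed mesenchymal genes, none of the 8 lay outside the range of the Blank columns in all 3 tumours.

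Marker-free Cdh1-positive cells whose centre lay within 15 µm of a fibroblast-gated cell were compared with those that had none within 50 µm. There were 17174, 6375 and 11323 near cells and 1436, 7580 and 10321 far cells. None of the 8 genes passed, where 2.06% of the 243 genes tested did, 1.23% as higher and 0.823% as lower, 68 of 243 genes had an unadjusted p under 0.05 in edgeR and DESeq2 passed 1 of the 8. Medians of the log2 fold change were 0.23 for the 8 genes and -0.01 for all genes. Foxc2 had 0.229, 0.181 and 0.322 per 1000 near, against 0.147, 0.101 and 0.120 per 1000 far from fibroblast-gated cells (log2 fold change 1.06 ± 0.18, SE; edgeR adjusted p = 0.0588). Snai2 had 0.218, 0.240 and 0.201 per 1000 near, against 0.140, 0.142 and 0.136 per 1000 far (log2 fold change 0.67 ± 0.13, SE; edgeR adjusted p = 0.0596). Prrx1 had 0.334, 0.237 and 0.330 per 1000 near, against 0.541, 0.326 and 0.468 per 1000 far (log2 fold change -0.54 ± 0.14, SE; edgeR adjusted p = 0.0689). In each of these genes near and far differed in the same direction in all 3 tumours. The far side of tumour 1 rested on only 22 Foxc2, 21 Snai2 and 81 Prrx1 transcripts. The levels of Foxc2 and Snai2, however, were below the highest Blank column on both sides. Those of Prrx1 were below it near fibroblast-gated cells in all 3 tumours, and far from them in tumour 2. The Blank folds ran from -0.83 to 0.22, with the Prrx1 fold inside that range and those of Foxc2 and Snai2 above it. Foxc2 and Snai2 passed with library sizes in place of TMM scaling (edgeR adjusted p = 0.04999 for both) and with the Blank columns in the fit (0.0414 and 0.0459), Foxc2 alone by DESeq2 (adjusted p = 0.00303), and Snai2 alone near the fibroblast cells with at least 20% markers (edgeR adjusted p = 0.0429).

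Snai1 had 0.519, 0.589 and 0.782 per 1000 near, against 0.340, 0.517 and 0.546 per 1000 far, above the highest Blank column on the near side in all 3 tumours and, on the far side, in tumour 3 alone (edgeR adjusted p = 0.129). Along the distance to the nearest endothelial-gated cell, the Snai1 level of marker-free Cdh1-positive cells was 0.643, 0.842 and 1.003 per 1000 within 15 µm, against 0.451, 0.552 and 0.654 per 1000 beyond 50 µm. The nearest bin rested on only 37, 32 and 29 Snai1 transcripts, and all 3 tumours had the higher value near the vessel. The part that transcripts of the adjacent endothelial cell play in this was not tested.

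**Figure D4:**
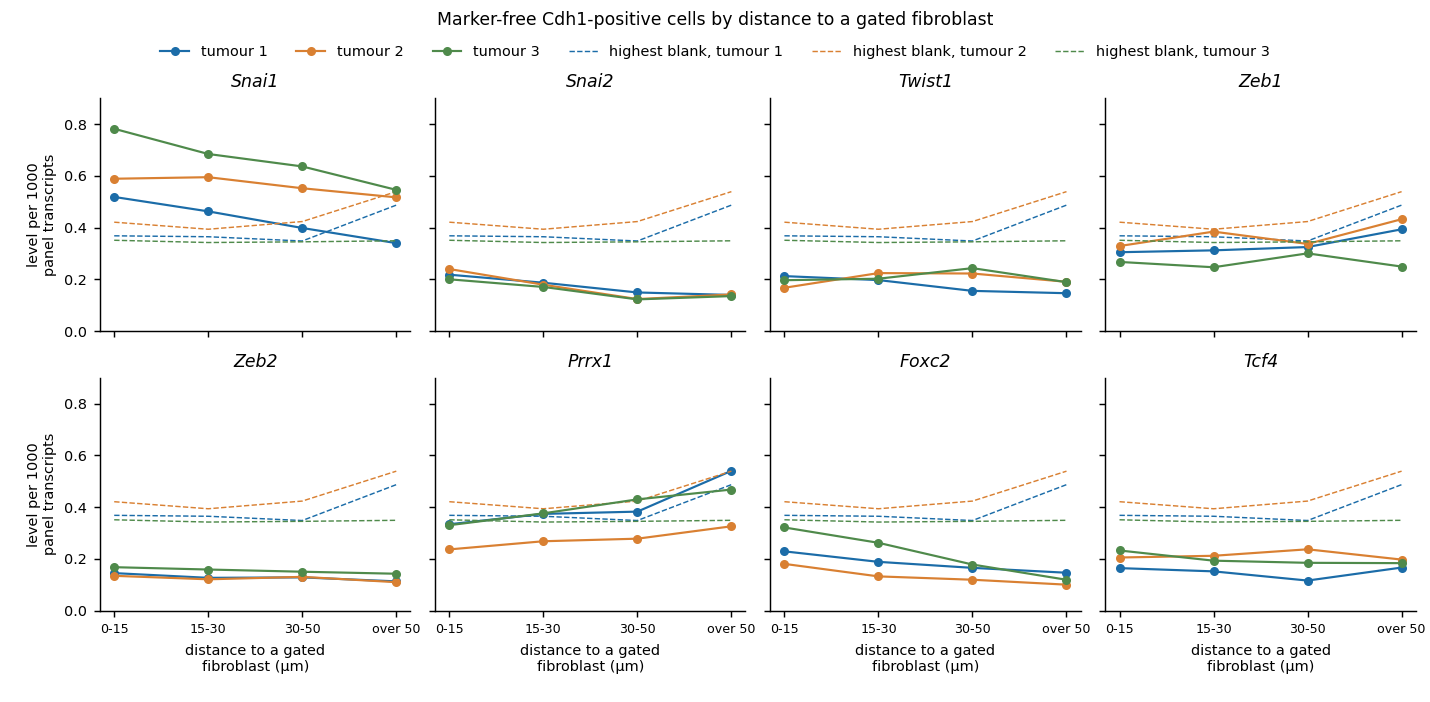
Level (transcripts per 1000 panel transcripts) of each of the 8 genes in marker-free Cdh1-positive cells by distance in µm to the nearest fibroblast-gated cell, 1 solid line per tumour and a dashed line for the highest Blank column. Within 15 µm Snai1 is at 0.519, 0.589 and 0.782 per 1000, above the dashed lines, while Snai2 and Foxc2 lie below them at every distance.

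Cells with at least 3 transcripts of 1 of the genes, a threshold chosen after the data were seen, are less open to single background barcodes, of which a median of 6, 6 and 9 cells per Blank column reached that count. There were 1173, 924 and 1295 such cells for Snai1, 477, 220 and 636 for Foxc2, 437, 444 and 159 for Twist1, 237, 134 and 92 for Snai2 and 217, 203 and 38 for Zeb1. Zeb2 had 50, 64 and 26, Prrx1 89, 72 and 124, and Tcf4 3, 5 and 8. The Blank column with the most such cells had 243, 222 and 402, a number that only Snai1 exceeded in all 3 tumours. The gates these cells met, whatever their Cdh1 count, were set beside those of all kept cells of the same depth. The endothelial gate was met by 29.0%, 36.9% and 26.3% of the Zeb1-high cells, against 2.9%, 2.3% and 1.1% of depth-matched cells. Of the Snai1-high cells 19.1%, 20.02% and 3.2% met it, against 3.1%, 2.4% and 1.0%, so that tumour 3 had a much lower share. The pericyte gate was met by 10.8%, 11.7% and 6.5% of the Snai1-high cells, against 3.1%, 2.4% and 1.1%. More of them, 67.8%, 58.4% and 41.6%, met the fibroblast gate, against 53.4%, 45.4% and 36.4%, and gates could be met together. No stromal gate was met by 25.2%, 33.4% and 56.2%, against 45.2%, 53.0% and 62.9%. A Cdh1 transcript was seen in 46.0%, 52.8% and 50.8% of the Snai1-high cells, against 67.1%, 66.8% and 56.4%.

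Of Twist1-high cells 69.6%, 91.4% and 75.5% met the fibroblast gate, against 54.3%, 46.3% and 36.8% of depth-matched cells, and 25.4%, 30.2% and 26.4% had a Cdh1 transcript, against 67.3%, 67.3% and 56.7%. Their Col1a1 level was 228, 339 and 274 per 1000, against 45.9, 50.004 and 35.8 per 1000 in all kept cells. Zeb2-high cells, few as they were, met the fibroblast gate in 96.0%, 90.6% and 80.8%, against 69.8%, 52.4% and 44.3% of depth-matched cells, and had Col1a1 at 325, 382 and 339 per 1000. Snai2-high cells met the fibroblast gate in 62.0%, 74.6% and 47.8%, against 52.4%, 46.5% and 34.6% of depth-matched cells. Only 9.3%, 3.0% and 18.5% of them fell in the basal class, against 2.7%, 0.89% and 1.6%. The level of the basal keratin gene Krt5 in Snai2-high cells was 71.2, 28.1 and 62.4 per 1000, against 7.94, 3.39 and 4.498 per 1000 in all kept cells, and Trp63, the basal lineage factor, was at 7.06, 6.53 and 6.33 per 1000, against 1.14, 1.46 and 0.79 per 1000. Both values exceeded those of all kept cells in every tumour, with no test made.

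The endothelial gate was met by 38.8% and 37.7% of Foxc2-high cells in tumours 1 and 2 but 4.4% in tumour 3, against 2.7%, 2.2% and 0.7% of depth-matched cells. Their Pecam1 level was 9.34, 10.97 and 1.06 per 1000, against 0.86, 0.77 and 0.41 per 1000 in all kept cells. The level of Sox9, an epithelial factor here used as a check gene, was 29.6, 31.8 and 54.2 per 1000 in Foxc2-high cells, against 47.1, 47.2 and 44.2 per 1000 in all kept cells. The pericyte gate was met by 6.7%, 17.7% and 9.4% of Foxc2-high cells, against 2.4%, 2.1% and 0.70% of depth-matched cells, above them in every tumour. A Cdh1 transcript was seen in 48.4%, 40.9% and 42.0% of Foxc2-high cells, against 64.5%, 63.4% and 45.9% of depth-matched cells. Tumour 3 had the lowest endothelial share and the highest Sox9 level among Foxc2-high cells. Of Prrx1-high cells 44.9%, 56.9% and 15.3% met the fibroblast gate, against 52.9%, 49.1% and 42.8% of depth-matched cells, above the matched share in tumour 2 alone. Differences between tumours were not tested, since each is 1 sample.

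**Figure D5:**
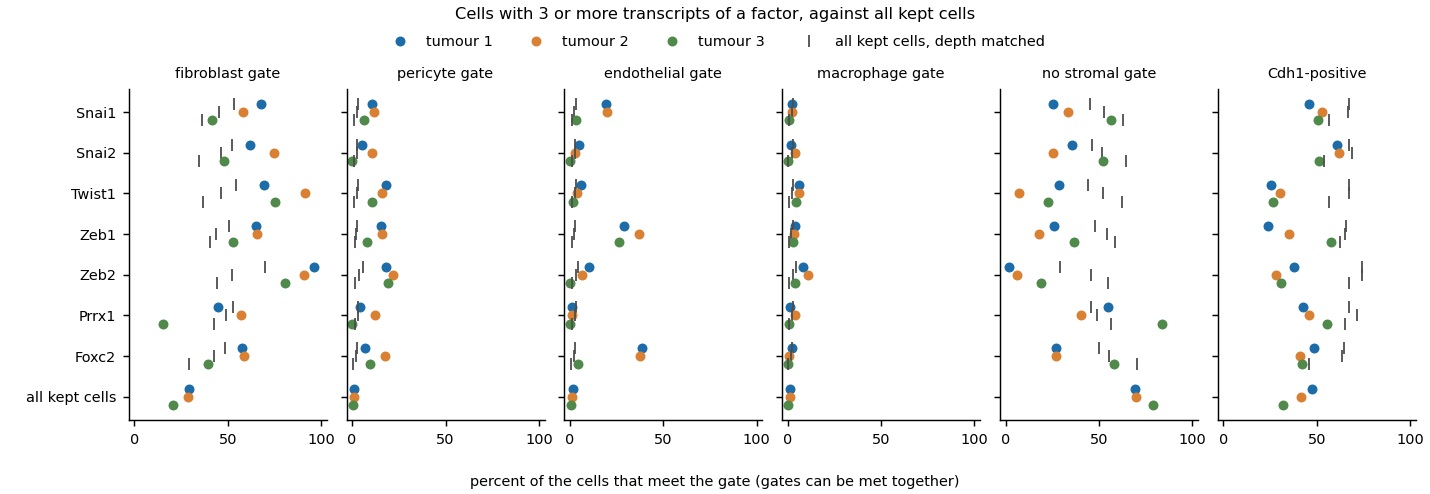
Percentage of cells with at least 3 transcripts of a gene that met each gate or were Cdh1-positive, 1 point per tumour, with a tick for all kept cells of matched depth; Tcf4, with 3, 5 and 8 cells, is left out. Zeb1-high cells met the endothelial gate in 29.0%, 36.9% and 26.3%, and Foxc2-high cells in 38.8%, 37.7% and 4.4%.

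Ordered by mean level over the 6 classes, Snai1 was highest in endothelial-gated cells (2.90 ± 0.69 per 1000, SD, n = 3) and pericyte-gated cells (2.22 ± 0.43), whose ranges overlapped and lay apart from fibroblast-gated cells (0.839 ± 0.062) and those from the 3 remaining classes. Zeb1 had the same leading pair, at 2.11 ± 0.67 and 1.26 ± 0.46 per 1000, apart from all other classes. Foxc2 was led by pericyte-gated, endothelial-gated and basal cells, at 1.53 ± 0.46, 1.46 ± 0.61 and 0.597 ± 0.308 per 1000, with neighbours that overlapped. Twist1 was led by pericyte-gated cells alone, at 1.71 ± 0.33 per 1000, apart from fibroblast-gated cells at 0.664 ± 0.168. For Snai2 the basal class came first, at 0.640 ± 0.038 per 1000, and overlapped pericyte-gated cells at 0.601 ± 0.230. The Zeb2 values of all 4 stromal classes overlapped their neighbours and lay apart from both Cdh1-positive classes. Tcf4 was highest in endothelial-gated and macrophage-gated cells, at 0.380 ± 0.070 and 0.354 ± 0.062 per 1000, apart from the other 4 classes but below the highest Blank column in each tumour.

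Likeness was sought over the 18 points of 6 classes by 3 tumours, which share sections and depth. Only genes above the background in at least 1 class were searched. Gate markers, Cdh1, basal keratins and the 8 genes were left out, so vascular markers such as Pecam1 could not be named. Within that set Snai1 was most like Col4a1, a basement membrane collagen (Pearson r = 0.95), and Id3, an inhibitor of helix-loop-helix factors (r = 0.92). Zeb1 was most like Id3 (r = 0.95) and Col4a1 (r = 0.90), and Foxc2 had the same pair (r = 0.82 for both). Snai2 was most like Lama3, a laminin chain of epithelial basement membranes (r = 0.80), and the Notch ligand gene Jag2 (r = 0.72). Among the 8 genes themselves, Snai1 and Zeb1 (r = 0.89), Snai1 and Foxc2 (r = 0.85) and Zeb1 and Foxc2 (r = 0.71) were closest, followed by Twist1 and Prrx1 (r = 0.70).

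Other genes of the transition were counted from lists of epithelial, mesenchymal and inducer genes on the panel. Of 2 epithelial genes beside Cdh1, the junction gene Cldn4 and the epithelial factor Grhl2, both were lower in each of the 4 stromal classes and neither changed in the basal class. Of 11 mesenchymal genes, 9 were higher and 1 lower in endothelial-gated cells, with a median log2 fold change of 1.21, 10 higher and 1 lower in pericyte-gated cells (median 1.98), 9 and 1 in fibroblast-gated cells (median 1.56) and 7 and 1 in macrophage-gated cells (median 0.84). In the basal class 1 was higher and 1 lower (median 0.25). Of all genes, 34.5% were higher and 29.1% lower in endothelial-gated cells, and 31% and 31% in pericyte-gated cells. The shares were 25.2% and 22.9% in fibroblast-gated, 24.4% and 22.9% in macrophage-gated and 5.81% and 6.2% in basal cells. Medians over all genes were 0.03, -0.05, -0.04, 0.09 and -0.14 in that order of classes. The matrix gene Sparc was at 127, 99.2 and 112 per 1000 in endothelial-gated cells, against 11.2, 8.18 and 8.40 per 1000 in other Cdh1-positive cells, a log2 fold change of 4.04. In pericyte-gated cells the surface protein gene Thy1 led, with a log2 fold change of 5.397, and smooth muscle actin, Acta2, followed with 2.79 beside Sparc with 3.18. The matricellular gene Thbs1 was the gene that fell in endothelial-gated, macrophage-gated and basal cells, with log2 fold changes of -1.57, -1.15 and -0.64. Sparc was higher in basal cells by 0.75. Near fibroblast-gated cells, 1 of the 11 passed, Sparc, with a log2 fold change of 1.53 (edgeR adjusted p = 0.0155), where 1.23% of all genes tested passed as higher.

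Of 9 inducer genes, 3 were higher and 2 lower in endothelial-gated cells (median log2 fold change 0.14), 2 and 3 in pericyte-gated cells (median 0.00), none and 1 in fibroblast-gated cells (median -0.15) and 3 and 3 in macrophage-gated cells (median 0.02). None passed in the basal class or near fibroblast-gated cells, where 12% and 2.06% of all genes tested did. Over all genes, 63.6% passed in either direction in endothelial-gated and 62% in pericyte-gated cells. The shares were 48.1% in fibroblast-gated and 47.3% in macrophage-gated cells. Medians over all genes were 0.03, -0.05, -0.04 and 0.09 in these 4 stromal classes. Tgfb1, the transforming growth factor, was higher in endothelial-gated cells with a log2 fold change of 1.51 and in macrophage-gated cells with 1.48, where the receptor gene Tgfbr1 had 2.51. The Notch ligand gene Jag1 was higher in pericyte-gated cells with 1.97 and in endothelial-gated cells with 1.36. Other inducers went the opposite way. Tgfb3 and Pmepa1 were lower in endothelial-gated cells (-0.87 and -0.57) and in pericyte-gated cells (-0.50 and -0.58). Tgfbr3 and Tgfb3 were lower in macrophage-gated cells (-0.84 and -0.50), and Notch1 in pericyte-gated and fibroblast-gated cells (-0.38 and -0.44).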

How the data were processed

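Per the labels, the deposited tables hold counts of decoded transcripts per segmented cell for each gene and Blank column; a second deposited table holds cell volume and centre coordinates (other units, taken as µm), as the authors made them. Scanpy 1.9.3 is named in the submitters' processing notes, with the decoding and segmentation software not given in the sources used here. Kept cells had 20 or more panel transcripts and a volume between 50 µm3 and 3 times the section median, and no doublet caller was run. A gate needed at least 2 of its markers (both of a pair) and a sum of 3 or more. Counts were summed per tumour and class and tested with edgeR 4.0.16 (R 4.3.3, limma 3.58.1; TMM, filterByExpr, quasi-likelihood, tumour as block, Benjamini-Hochberg over all genes tested at 0.05), with DESeq2 1.42.0 as an alternative. The tumour block follows from the design, since classes of 1 tumour share its section. The procedure was tested on simulated data. The genes, lists and tests were chosen with earlier results of these data known. Named genes were the 8, Cdh1, the 2 most correlated genes of each that stood above the Blank columns (log2 of the level plus 0.1), up to 4 passing genes per transition list, and gate and check markers. The search for correlated genes left out gate markers, Cdh1, basal keratins, the 8 genes and genes above the Blank columns in no class.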

Additional observations from a re-analysis of the deposited data

How the results depend on the processing

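Of 197 alternative counts of the 8 genes, 180 stayed within 1.5 times the reported count and 17 moved. Of 568 alternative values of single genes, 523 kept direction and side of the threshold. The fibroblast count of 4 became 7 with fibroblast markers at 20% or more and was 3 to 4 with 1 tumour left out. The macrophage count of 3 became 5 with the fibroblast gate ignored and was 1 to 3 with 1 tumour left out. The basal count of 2 was 1 to 2 with 1 tumour left out. The near-fibroblast count of 0 became 1 with fibroblast markers at 20% or more, 2 with library sizes, 2 with Blank columns added and 1 by DESeq2. Genes above the background numbered 0 in place of 1 in fibroblast-gated cells with the 20% limit, and 1 to 2 with 1 tumour left out. In pericyte-gated cells 0 became 3 without cells rich in a Blank column, 1 with a gate sum of 5, and 2 under each of the 3 changes of the fibroblast gate, and was 0 to 3 with 1 tumour left out. In marker-free Cdh1-positive cells the count was 1 to 2 with 1 tumour left out. Direction changed, without passing, for Prrx1 in fibroblast-gated cells: -0.0028 with at least 40 transcripts per cell, -0.023 with 3 Cdh1 transcripts, -0.16 with no Cdh1 limit, -0.021 with the fibroblast gate ignored, -0.040 with library sizes, -0.046 and -0.11 without tumours 1 and 2, -0.010 with Blank columns added and -0.067 by DESeq2. It also changed for Tcf4 in pericyte-gated cells (-0.21 with library sizes, -0.026 by DESeq2, and -0.34 without tumour 1, the lowest of a range up to 0.28 with 1 tumour left out) and Zeb1 in macrophage-gated cells (-0.0014 with no Cdh1 limit). Without the replicate block, 3 genes passed in fibroblast-gated cells (Zeb1 at adjusted p = 0.238), 7 in pericyte-gated, 7 in endothelial-gated, 3 in macrophage-gated and 2 in basal cells, and 0 near fibroblasts. Over all genes the block mattered more: without it 62 in place of 124 passed in fibroblast-gated cells, 108 in place of 160 in pericyte-gated, 73 in place of 122 in macrophage-gated, 10 in place of 31 in basal cells, and 0 in place of 5 near fibroblasts (20 at an unadjusted p under 0.05). Library sizes moved the all-gene median log2 fold change from 0.03 to -0.40 in endothelial-gated, from -0.05 to -0.31 in pericyte-gated and from 0.09 to 0.22 in macrophage-gated cells, and the share of calls that were higher from 54.3% to 34.3% in endothelial-gated and from 50% to 39.4% in pericyte-gated cells. The directions of the members that passed were the same under these scalings. The cause of these moves was not tested.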
